A study of Mus musculus with 16 samples.

Results

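The genes that carry a new secretory protein into the endoplasmic reticulum (ER) and on towards the Golgi were followed through mouse liver arrays. Members were the probe sets whose platform gene symbol belonged to the Sec61, Sec62 and Sec63 translocon, the signal recognition particle (SRP) and its receptor, the TRAP complex (Ssr genes), the small signal peptidase subunits (Spcs genes), the ribophorins, the COPII and COPI coats with Sec16 and Sar1, the p24 cargo receptors (Tmed genes) and the Sec22 family. This symbol rule, which used no measured value, took 109 of 22626 probe sets. Of these, 93 carried 1 symbol and named 51 genes. The other 16 carried several symbols and named no gene, though they were counted.

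The study held 16 single-sample Affymetrix arrays of liver RNA from male FvB/n mice, in 2 experiments of 8 arrays. In the first, 4 arrays came from AP20187-treated and 4 from untreated mice of the high-expressing TTR::Fv2E-PERK line. All 8 arrays therefore came from carriers of the transgene, a fusion of drug-binding domains with the stress kinase PERK driven by the liver-active transthyretin (TTR) promoter, and AP20187 is a compound that joins 2 such molecules. In the second, 2 arrays came from each of HFD-fed Alb::GC, HFD-fed wildtype, LFD-fed Alb::GC and LFD-fed wildtype mice, where HFD is the high fat diet and LFD the low fat diet. Alb::GC mice express, from the albumin promoter, an active fragment of GADD34, the phosphatase subunit that removes the phosphate PERK places on the translation factor eIF2α. The sources used here give no age, dose or time on diet or drug. They also do not say that the arrays of a group came from separate animals. The p-values therefore cover only the spread among these arrays, part of which may be technical. For LFD wildtype replicate 2 one label field gives both genotypes, and for AP20187 replicate 4 one field is a single letter. Both were placed by their descriptions.

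The deposited value is a ratio around 1 for each probe set and array, with no absolute level and no detection call, so the labelled tissue could not be checked by whether liver markers were present. Each experiment was kept on its own scale, and array medians lay between 0.94 and 1.02. Differences are given on the scale log2(ratio + 0.05), the first-named group minus the second, ± standard error. That scale understates changes of low ratios. A difference was called where limma's Benjamini-Hochberg adjusted p, over all 22626 probe sets, was under 0.05.

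As background, a signal peptide is met by SRP as it leaves the ribosome, and the SRP receptor passes the ribosome to the Sec61 channel. TRAP sits beside the channel, signal peptidase cuts the signal off, and the ribophorins belong to the enzyme that attaches sugar chains. COPII coats then bud vesicles from the ER, COPI coats carry material back, and p24 proteins travel in both. Hepatocytes secrete most plasma proteins and use this route heavily. In stressed cells the transcription factors XBP1 and ATF6 are known to raise many of these genes, whereas PERK is known to slow protein synthesis through eIF2α.

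AP20187 treatment was compared with no treatment to ask how the route responds when Fv2E-PERK is activated. No treated array came from mice without the transgene, so an effect of the compound itself cannot be told apart from activation of the kinase. Most of the route was lower in treated liver. By limma's adjusted p, 71 of the 109 member probe sets were lower, 8 were higher and 30 did not pass, against 20.4% lower and 13.7% higher among all probe sets. The member median was -0.62, and the median of all probe sets was -0.13. By gene, 33 of 51 fell, 5 rose and 13 did not pass. In 74 member probe sets every treated array lay below every untreated array and in 8 every treated array lay above, against 20.5% and 14.5% of all probe sets.

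**Figure D1:**
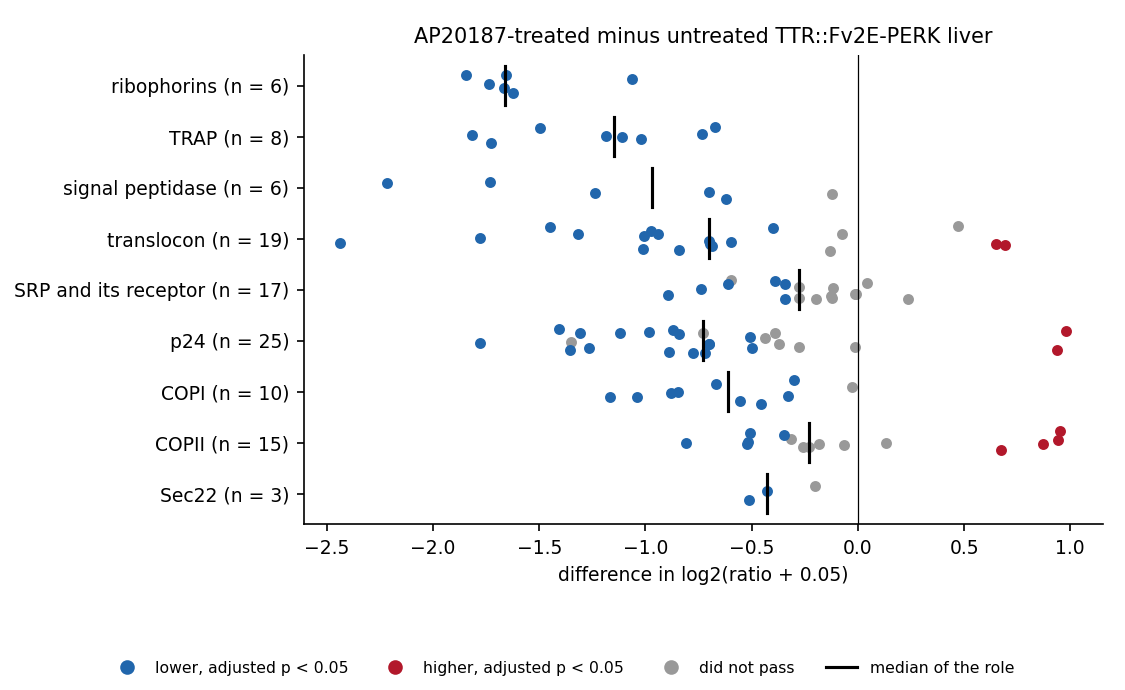
Each point is 1 member probe set, placed by its difference between AP20187-treated and untreated TTR::Fv2E-PERK liver on the log2(ratio + 0.05) scale (4 arrays each), in rows by role, with black bars at the median of each role. All ribophorin and TRAP points lie left of 0 and passed, and the COPII row holds 4 points that passed on the right.

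The ribophorins, TRAP and the signal peptidase subunits had the lowest role medians. The median difference was -1.66 for the ribophorins, -1.15 for TRAP and -0.97 for the signal peptidase subunits. It was -0.73 for p24 proteins, -0.70 for the translocon, -0.61 for COPI and -0.43 for Sec22. SRP with its receptor and COPII had the smallest, at -0.28 and -0.23. These medians describe the roles and were not tested against each other. They are taken over probe sets, so a gene with several sets weighs more. Of the 6 ribophorin sets, 5 are of Rpn1.

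Among the entry steps, SRP and its receptor had the median nearest 0. The Srp9 subunit, which with Srp14 halts elongation, fell in both of its probe sets. Srp9 had ratios of 0.89, 0.88, 0.71 and 0.80 in treated liver and 1.58, 1.52, 1.62 and 1.53 in untreated liver, with no overlap. The difference was -0.89 ± 0.09 (limma, adjusted p = 0.000256), and the other set gave -0.74. Srp14 fell in 2 of 4 probe sets, both at -0.34, and the other 2 stood at -0.01. Srp19 and Srp68, which assemble the particle, did not pass at -0.28 and -0.20. The receptor subunit Srpr did not pass in either probe set (-0.60 and -0.12), and its membrane partner Srprb fell in 1 of 3 probe sets (-0.61). Probe sets of Srp54, the subunit that binds the signal peptide, share symbols between 2 or 3 gene copies, and their 3 values of -0.12, 0.04 and 0.24 did not pass.

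At the channel, the pore subunit Sec61a1 fell in all 6 of its probe sets, by 0.70 to 1.32 on the log2 scale. The set with the largest difference had ratios of 0.53, 0.43, 0.72 and 0.53 in treated liver and 1.66, 1.26, 1.35 and 1.47 in untreated liver. Every treated array was below every untreated one in that set, and replicate 3 was the highest of the treated arrays. The small channel subunit Sec61b had ratios of 0.54, 0.53, 0.61 and 0.53 in treated liver, against 2.07, 1.79, 2.05 and 2.18 in untreated liver. Its difference was -1.78 ± 0.09 (limma, adjusted p = 5.74e-05), the joint smallest adjusted p of any member. A set shared by Sec61b with a second symbol had the largest fall of all member sets, at -2.44 ± 0.67 (limma, adjusted p = 0.0231). The arrays of that shared set overlapped between groups. Sec63, which recruits the chaperone BiP to the channel, fell in all 4 probe sets (-0.40 to -1.0). Its partner Sec62 fell in 1 of 4 (-0.60), and the other 3 lay at -0.13, -0.07 and 0.47.

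The second channel pore gene went the other way. Sec61a2 had ratios of 1.15, 1.16, 0.86 and 0.97 in treated liver and 0.64, 0.56, 0.73 and 0.63 in untreated liver. It rose by 0.65 ± 0.15 (limma, adjusted p = 0.0116), and its other probe set rose by 0.69 ± 0.17 (limma, adjusted p = 0.0161). The arrays of both sets did not overlap between groups. Since the values are ratios, they do not show which of the pore genes was more abundant.

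All 4 TRAP genes fell in every probe set. Ssr1, the alpha subunit, had ratios of 0.57, 0.51, 0.70 and 0.55 in treated liver and 2.13, 1.97, 2.03 and 2.01 in untreated liver in 1 of its 3 sets. That set gave -1.73 ± 0.10 (limma, adjusted p = 7.65e-05), and the other 2 gave -1.5 and -1.82. Ssr3 fell by 1.19, Ssr2 by 1.02 and Ssr4 by 0.67 to 1.11 over its 3 sets. In 7 of the 8 TRAP probe sets no treated array reached an untreated one.

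Signal peptidase genes fell as well. Spcs3, a signal peptidase subunit whose yeast counterpart is required for cleavage, had the largest fall of any named member. It had ratios of 0.59, 0.46, 0.66 and 0.45 in treated liver and 2.43, 2.70, 2.63 and 2.91 in untreated liver. The means were 0.54 ± 0.102 in treated and 2.67 ± 0.198 in untreated liver (SD, n = 4 each), and the difference was -2.22 ± 0.13 (limma, adjusted p = 7.65e-05). Spcs2 fell in both sets (-1.73 and -1.24), and Spcs1 fell in 2 of 3 (-0.70 and -0.62; the third stood at -0.12).

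Rpn1, the ribophorin that holds the sugar-transferring enzyme to the ribosome, fell by 1.62 to 1.84 in all 5 probe sets. In the set with the smallest adjusted p its ratios were 0.62, 0.58, 0.73 and 0.67 in treated liver and 1.87, 2.38, 1.97 and 2.22 in untreated liver. Its partner Rpn2 had 0.79, 0.66, 1.10 and 0.78 in treated liver and 1.83, 1.60, 1.65 and 2.02 in untreated liver. The Rpn2 difference was -1.07 ± 0.15 (limma, adjusted p = 0.00127). All 6 ribophorin sets separated the groups without overlap.

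COPII was split. Of its 12 genes, 4 fell, 3 rose and 5 did not pass. Sar1a, the GTPase that starts the coat, fell in both sets (-0.52 and -0.35), and the outer coat protein Sec13 fell by 0.51. Sar1b, Sec16a, Sec16b, Sec24d and Sec31a stood at -0.32 to 0.13 and did not pass. Among the inner coat genes, one member of a related pair fell and the other rose. Sec23b had ratios of 0.62, 0.62, 0.65 and 0.61 in treated liver and 1.13, 1.05, 1.05 and 1.32 in untreated liver, a difference of -0.81 ± 0.12 (limma, adjusted p = 0.00144). Sec23a had 1.04, 0.96, 1.05 and 0.91 in treated liver and 0.61, 0.52, 0.64 and 0.64 in untreated liver, a difference of 0.67 ± 0.14 (limma, adjusted p = 0.00602). In both genes the arrays of the groups were fully apart, in opposite directions.

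The same held for the cargo-binding Sec24 genes. Sec24c fell by 0.52 ± 0.11 (limma, adjusted p = 0.00653), with ratios of 0.87, 0.82, 1.02 and 0.83 in treated liver and 1.33, 1.18, 1.20 and 1.46 in untreated liver. Sec24b rose in both sets, by 0.94 and 0.95. In the second set it had 1.10, 1.25, 1.13 and 1.04 in treated liver and 0.71, 0.50, 0.52 and 0.53 in untreated liver, with untreated replicate 1 apart from its group. Sec23ip, a Sec23-binding protein, rose by 0.87 ± 0.13 (limma, adjusted p = 0.00171), with treated ratios of 1.07 to 1.5 and untreated ratios of 0.61 to 0.75. The related pairs were picked after their values were seen, so the splits are a description.

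**Figure D2:**
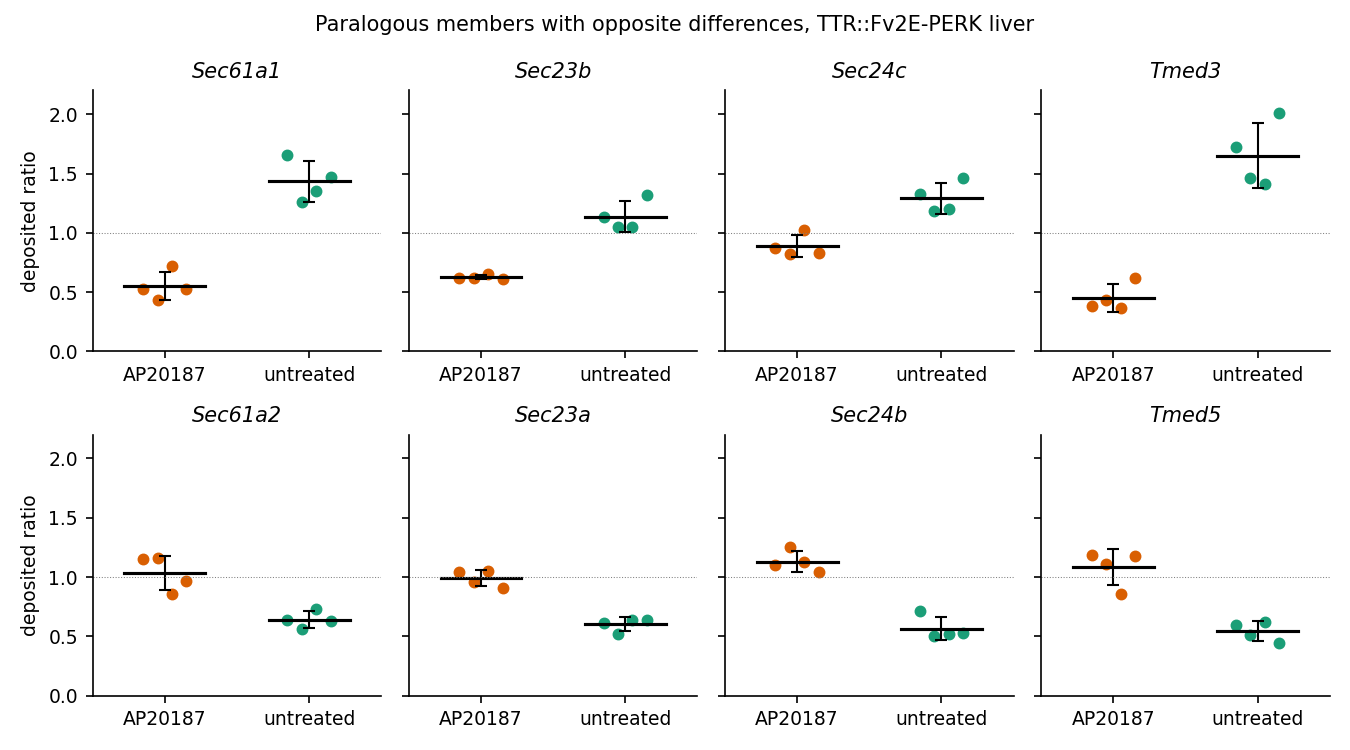
Deposited ratios (vertical axis) of 4 treated arrays (left, orange) and 4 untreated arrays (right, green) of TTR::Fv2E-PERK liver for related members, each by its probe set of smallest p, with the mean and SD in black. Sec61a1, Sec23b, Sec24c and Tmed3 in the top row are lower in treated liver, and Sec61a2, Sec23a, Sec24b and Tmed5 in the bottom row are higher.

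COPI fell more evenly, with 7 of 8 genes lower. Copz1, a small coat subunit, had ratios of 0.98, 0.80, 1.06 and 0.91 in treated liver and 2.33, 1.88, 2.06 and 2.38 in untreated liver. Its difference was -1.16 ± 0.12 (limma, adjusted p = 0.000261). Cope fell by 1.04, Copz2 by 0.67, Copa by 0.55, Copg1 by 0.85 and 0.46 in its 2 sets, Copg2 by 0.88 and Copb2 by 0.33 and 0.30. Copb1 did not pass at -0.03 ± 0.11 (limma, adjusted p = 0.877), and after median centring or quantile normalization its sign turned, to 0.027 and 0.059. Under both of those scalings the calls of Copg2, Sec13 and the sets of smallest p of Copb2 and Srp14 ended. Their differences were then -0.80 and -0.82 for Copg2, -0.44 and -0.45 for Sec13, -0.27 for Copb2, and -0.28 and -0.32 for Srp14.

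Of the 9 p24 genes, 5 fell, 1 rose and 3 did not pass. Tmed3 had ratios of 0.38, 0.43, 0.37 and 0.62 in treated liver and 1.72, 1.46, 1.41 and 2.01 in untreated liver, a difference of -1.78 ± 0.19 (limma, adjusted p = 0.00036). Tmed10 fell by 1.35, and Tmed9 fell in both sets (-0.51 and -0.50). Tmed4 fell in 1 of 2 sets (-0.87, the other at -0.01) and Tmed7 in 2 of 4 (-0.72 and -0.89). Tmed5 rose in both sets. In one of them it had 1.19, 1.11, 0.86 and 1.18 in treated liver and 0.60, 0.51, 0.62 and 0.44 in untreated liver, a difference of 0.94 ± 0.17 (limma, adjusted p = 0.00417). Tmed6, Tmed8 and Tmed11 did not pass, at -1.35 ± 0.48, -0.28 ± 0.25 and -0.44 ± 0.80. Probe sets shared by Tmed2 or Tmed10 with a second symbol were lower in 9 of 10 cases. Of the Sec22 family, Sec22b, a SNARE that helps vesicles fuse, fell in both sets (-0.51 and -0.43), and Sec22a did not pass at -0.20.

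Of 23 genes with 2 or more probe sets, 6 had sets that differed in call: Sec62, Spcs1, Srp14, Srprb, Tmed4 and Tmed7. In none of the 6 did one set rise and another fall past the threshold. The set shared by Srprb with the transferrin gene Trf (-0.39) was counted among the 71 and named no gene.

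Other genes of the route, from a list of 56 that the symbol rule leaves out, were mostly lower or did not pass. Of these, 28 fell, 3 rose and 25 did not pass. By probe set 44.2% of 113 were lower and 2.65% higher, against 20.4% and 13.7% of all probe sets. Among the partners of the ribophorins in sugar transfer, Dad1 fell by 1.79 and 1.56 in its 2 sets, Ostc by 1.42, Magt1 by 1.39 and Ddost by 1.07. Tram1, which sits beside the channel, fell by 1.61 and 1.52, and Sec11c, a catalytic subunit of signal peptidase, by 1.45. The cargo receptor Lman1 fell in 3 of its 4 sets by 0.82 to 0.92, and Kdelr1, which returns ER proteins, by 0.78. Arfgap1, Trappc5 and Gorasp1 rose, by 0.49 to 0.61.

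Of 10 transcriptional and stress regulators of the route, 6 rose, 1 fell and 3 did not pass. By probe set 8 of 21 were higher and 2 lower, against 13.7% and 20.4% of all probe sets. Creb3l2, known to raise Sec23a in mouse cartilage, fell in both of its sets (-1.11 and -0.70). Ddit3 rose by 3.34, Atf6 by 1.35, Ern1 by 0.95 in 1 set, Atf4 by 0.93 in 1 set and Xbp1 by 0.45 to 0.88 in 3 of 4 sets. An array signal from Xbp1 does not report its splicing. Creb3l3, a liver-specific relative of Creb3l2, rose by 0.51.

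Markers of liver cells moved in the same comparison. Of 6 hepatocyte markers 5 fell, by 0.27 to 0.62, and the summed ratio of their 11 probe sets was 9.89 to 11.4 in treated and 13.4 to 15.3 in untreated liver. Of 6 macrophage markers 4 fell, with summed ratios of 6.07 to 8.33 in treated and 9.60 to 10.1 in untreated liver. Of 6 stellate and fibroblast markers 3 fell (summed ratios 8.16 to 9.43 in treated and 14.9 to 20.8 in untreated liver), and of 5 endothelial markers 2 fell (5.07 to 6.18 in treated and 7.28 to 8.11 in untreated liver). None of 5 plasma cell markers passed, and their sums were 16.6 to 17.5 in treated and 18.3 to 19.7 in untreated liver. No neutrophil marker passed, though the summed ratios did not overlap (3.49 to 4.96 in treated and 5.83 to 6.43 in untreated liver). No lymphocyte or adipocyte marker passed, and their sums overlapped. Of cholangiocyte markers, 1 of 4 rose (Sox9, by 1.06 in 1 of 2 sets). Of 4 exocrine pancreas markers, from a tissue rich in these members, 1 fell (Cela1, by 1.82), and their summed ratios were 4.09 to 8.88 in treated and 6.14 to 12.2 in untreated liver. In bulk liver, fewer cells of a type and less RNA per cell cannot be told apart, and the part of cell makeup in the members' fall was not tested.

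RNA quality signals differed between arrays. The Gapdh 3' minus 5' signal was 0.19 in treated replicate 3, against -0.14 to -0.10 in the other treated arrays and -0.06 to -0.01 in the untreated arrays. That of beta-actin was -0.04 in treated replicate 1 and 0.15 in the other 3 treated arrays, which lay above all untreated arrays (-0.18 to -0.02). The part of RNA quality in the members' differences was not tested. Among the 71 lower members replicate 3 was the highest treated array in 38. Without it 66 members were lower and 8 higher. Without replicate 4, whose label is incomplete in 1 field, the counts were 62 and 9.

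High fat diet was compared with low fat diet within each genotype and averaged over both, which asks how the route responds to overfeeding when eIF2α signalling is intact or damped. Each group held 2 arrays. In wildtype liver 10 member probe sets (9.17%) were lower and 4 (3.67%) higher, against 6.63% and 7.97% of all probe sets. The members' shares lay near that background. In Alb::GC liver 0 were lower and 7 higher by limma's adjusted p, against 2.13% and 4.64% of all probe sets. At an unadjusted p under 0.05, 26 members (23.9%) passed in Alb::GC and 36 (33.0%) in wildtype, against 28% and 33.7% of all probe sets, so neither share was above the background. With each array centred on its median, the Alb::GC counts were 3 lower and 8 higher.

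These within-genotype calls were fragile. With only the 4 arrays compared in the fit, 1 member was lower and 1 higher in wildtype, and 0 and 0 in Alb::GC. Leaving out either HFD array of the genotype compared ended every call in that genotype.

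Averaged over genotypes, 14 member probe sets (12.8%) were lower and 12 (11%) higher, against 14.0% and 13.5% of all probe sets, so the shares were not above the background. These counts also moved with single arrays. Without HFD Alb::GC replicate 1 there were 9 lower and 6 higher, and without replicate 2 there were 7 and 6. Without HFD wildtype replicate 1 there were 7 and 7, and without replicate 2 there were 9 and 6. Leaving out LFD Alb::GC replicate 1 gave 12 and 7, and replicate 2 gave 9 and 10. The member median was -0.10, and that of all probe sets was -0.07. By gene, 10 rose, 8 fell and 33 did not pass. Of 12 COPII genes 5 rose and 1 fell. Of the 20 genes of SRP, channel, TRAP, signal peptidase and ribophorins, 1 rose and 5 fell. A gene counts where any 1 of its sets passes, so the counts by probe set are given too. Lower sets were 3 of 17 for SRP and its receptor, 2 of 19 for the translocon, 2 of 8 for TRAP, 0 of 6 for signal peptidase and 3 of 6 for the ribophorins. Higher sets were 1 of 17 for SRP and its receptor, 1 of 19 for the translocon and 0 for TRAP, signal peptidase and the ribophorins. For COPII 1 of 15 sets was lower and 5 were higher. The steps were not tested against each other.

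**Figure D3:**
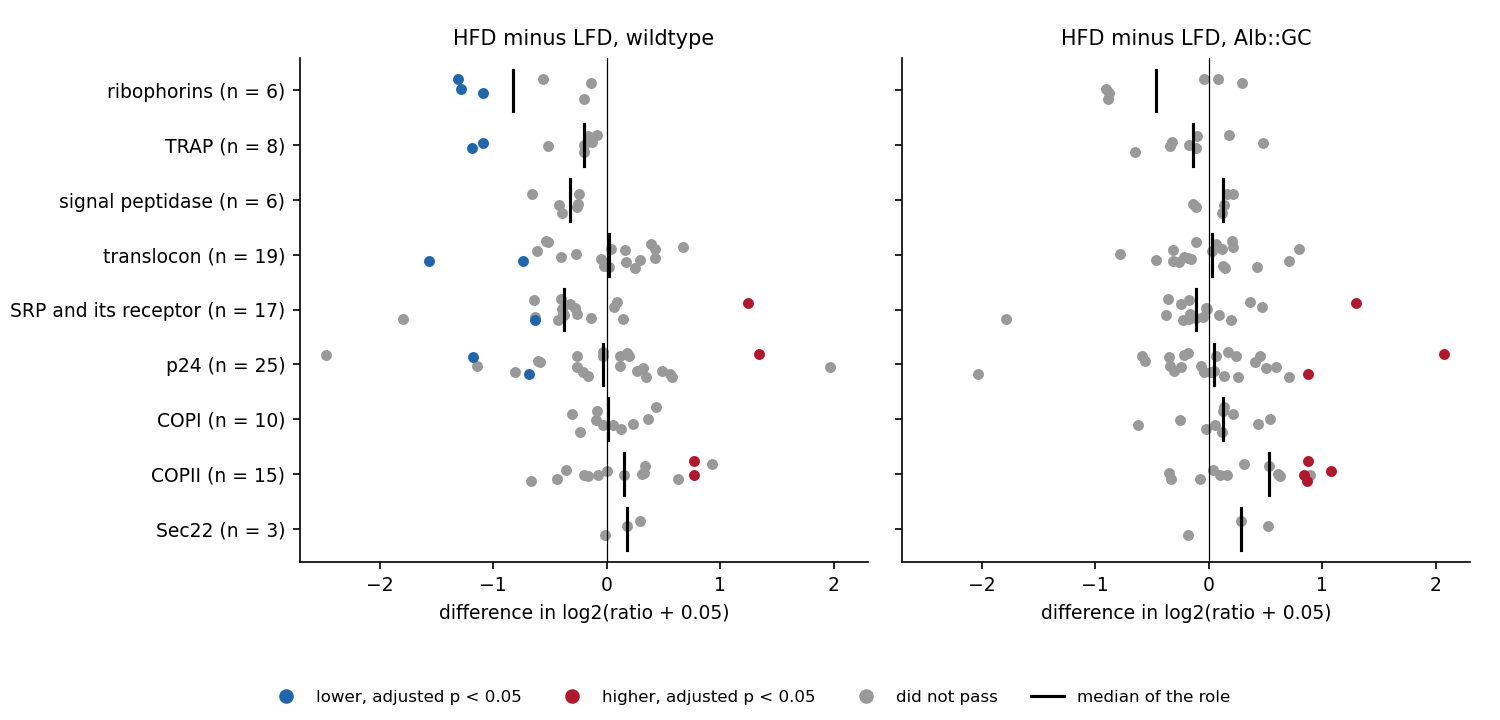
Each point is 1 member probe set, placed by its difference between HFD and LFD liver on the log2(ratio + 0.05) scale, in wildtype (left panel) and Alb::GC mice (right panel), 2 arrays per group, with black bars at the median of each role. In wildtype the points that passed on the left include 3 of Rpn1 and 2 of TRAP, and in Alb::GC all 7 points that passed lie on the right.

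The COPII genes that rose with HFD include organizers of ER exit sites and some genes of each coat layer. On average the outer coat gene Sec13 (-0.26) and the GTPases Sar1a (-0.26 and -0.16) and Sar1b (0.23) did not pass. Sec16b, an exit-site scaffold, had ratios of 1.88 and 1.58 in HFD Alb::GC against 1.04 and 0.81 in LFD Alb::GC arrays, while wildtype arrays had 1.35 and 1.39 on HFD against 0.86 and 0.71 on LFD. All 4 HFD arrays were above all 4 LFD arrays. The averaged difference was 0.82 ± 0.13 (limma, adjusted p = 0.00856). Sec31a, the outer coat rod, had 1.69 and 1.81 in HFD Alb::GC against 0.99 and 0.92 in LFD Alb::GC arrays, while wildtype arrays had 1.46 and 1.73 on HFD against 0.97 and 0.86 on LFD. It rose by 0.80 ± 0.10 on average (limma, adjusted p = 0.00497), and by 0.84 in Alb::GC and 0.77 in wildtype.

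Of the inner coat genes, Sec23a and Sec24d rose on average. Sec23b (0.23), Sec24c (0.08) and both Sec24b sets (0.42 and 0.77) did not pass. Sec23a had ratios of 1.42 and 1.43 in HFD Alb::GC against 0.66 and 0.87 in LFD Alb::GC arrays, while wildtype arrays had 1.30 and 1.45 on HFD against 0.92 and 0.82 on LFD. It rose by 0.75 on average and by 0.87 in Alb::GC, and did not pass in wildtype at 0.63 ± 0.17 (limma, adjusted p = 0.0564). Sec24d had 1.53 and 1.72 in HFD Alb::GC against 0.79 and 0.70 in LFD Alb::GC arrays, while wildtype arrays had 1.20 and 1.34 on HFD against 1.07 and 0.93 on LFD. It rose by 1.08 ± 0.15 in Alb::GC (limma, adjusted p = 0.0191) and stood at 0.33 in wildtype, and the difference between genotypes of 0.74 ± 0.21 did not pass (limma, adjusted p = 0.3). Sec16a rose in 1 of 2 sets (0.61 on average; the other stood at 0.01). Sec23ip was the COPII gene that fell, by 0.51 on average.

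**Figure D4:**
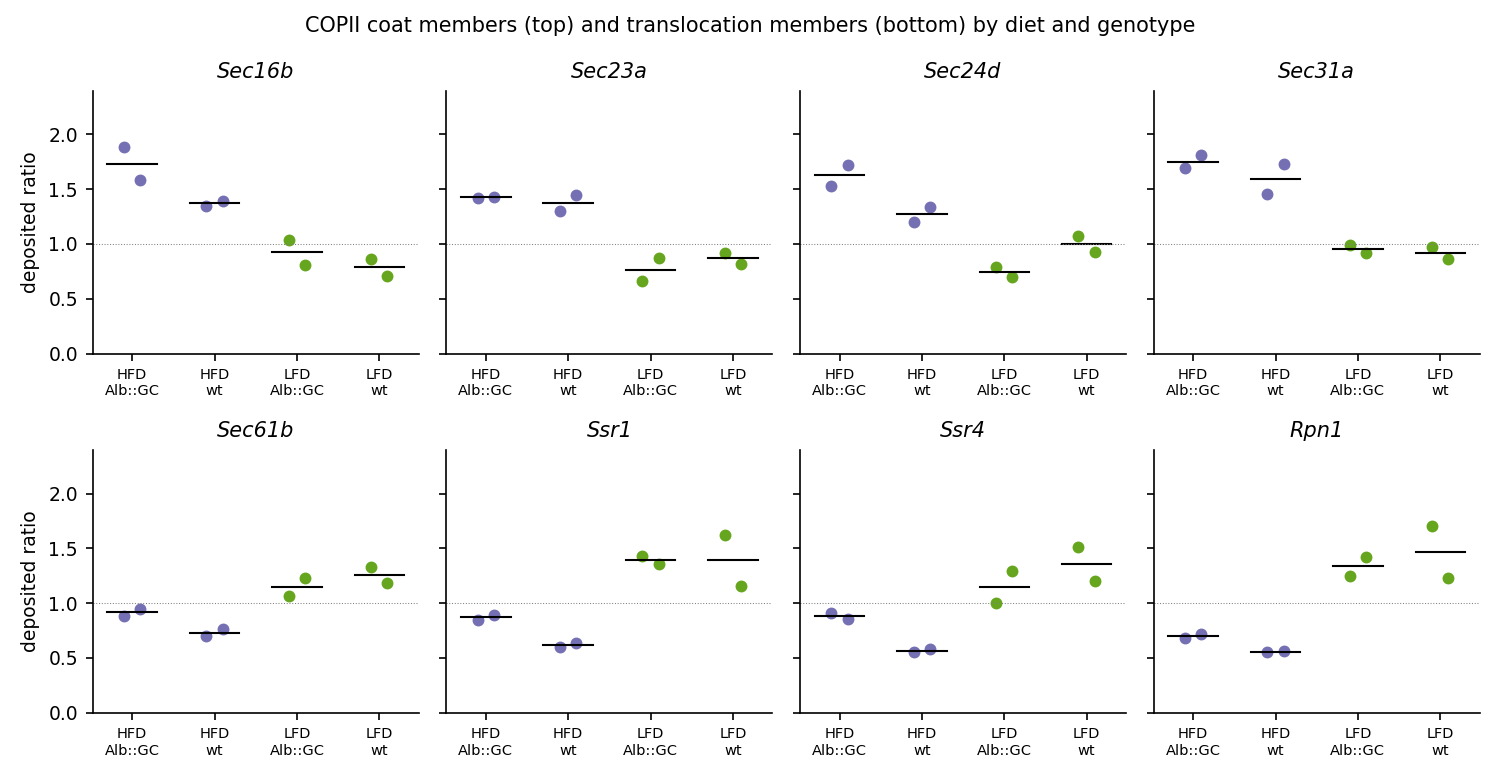
Deposited ratios (vertical axis) of the 2 arrays of each diet and genotype group, with black bars at the group mean, for 4 COPII members in the top row and 4 members of the entry step in the bottom row, chosen after their values were seen. HFD arrays (purple, left) lie above LFD arrays (green, right) in the top row and below them in the bottom row.

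On the entry side the genes that fell with HFD were Sec61b, Ssr1, Ssr4, Rpn1 and Srp14. Rpn1 fell in 3 of 5 sets. In the set with the largest difference it had 0.68 and 0.72 in HFD Alb::GC against 1.25 and 1.42 in LFD Alb::GC arrays, while wildtype arrays had 0.55 and 0.56 on HFD against 1.70 and 1.23 on LFD. The averaged difference was -1.09 ± 0.14 (limma, adjusted p = 0.00581), at -1.31 in wildtype and -0.88 in Alb::GC, where it did not pass. The other 2 Rpn1 sets stood at -0.30 and -0.06, so the probe sets of this gene disagree, although all 5 fell with AP20187.

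The TRAP genes Ssr1 and Ssr4 also had sets that differed in call, and Ssr2 and Ssr3, with 1 set each, did not pass at -0.31 and -0.19. One Ssr1 set had 0.85 and 0.89 in HFD Alb::GC against 1.43 and 1.36 in LFD Alb::GC arrays, while wildtype arrays had 0.60 and 0.64 on HFD against 1.62 and 1.16 on LFD, an averaged difference of -0.87 ± 0.13 (limma, adjusted p = 0.0084). The other 2 Ssr1 sets stood at -0.13 and 0.17. Ssr4 fell by 0.76 on average in 1 of 3 sets, and the other 2 stood at -0.20 and -0.01. Sec61b had 0.88 and 0.95 in HFD Alb::GC against 1.07 and 1.23 in LFD Alb::GC arrays, while wildtype arrays had 0.70 and 0.76 on HFD against 1.33 and 1.18 on LFD. It fell by 0.53 ± 0.11 on average (limma, adjusted p = 0.0201). A set shared by Sec61g with 2 other symbols fell by 1.17. Against these falls, a set shared by 3 Srp54 copies rose by 1.27 ± 0.10 (limma, adjusted p = 0.00177). That was the smallest adjusted p of any member in the average over genotypes. The same set rose by 1.25 in wildtype and 1.29 in Alb::GC. The other 2 Srp54 sets did not pass, at 0.23 and -0.99. No Sec61a1, Spcs2, Spcs3 or Rpn2 set passed with HFD, and Spcs3, the named member with the largest fall under AP20187, stood at -0.04.

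Among other members, Copa rose by 0.45 and was the 1 COPI gene that passed on average. Of the p24 genes, Tmed3 rose by 0.49 and Tmed7 in 1 of 4 sets by 0.50, and Tmed8 fell by 0.70 and Tmed4 in 1 of 2 sets by 0.59. Tmed5 was the highest riser in 1 set, with 2.71 and 2.32 in HFD Alb::GC against 0.43 and 0.72 in LFD Alb::GC arrays, while wildtype arrays had 2.62 and 2.26 on HFD against 1.08 and 0.80 on LFD. Its second set went the other way without passing, with 0.58 and 0.58 in HFD Alb::GC against 0.54 and 0.98 in LFD Alb::GC arrays, while wildtype arrays had 0.49 and 0.56 on HFD against 1.46 and 1.02 on LFD. The direction of Tmed5 with HFD therefore depends on the probe set. Of 4 Sec62 sets 1 rose, by 0.73.

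RNA quality and cell markers moved with diet. The 3' minus 5' signal of Gapdh was -0.31 to -0.15 in HFD arrays and 0.04 to 0.22 in LFD arrays, and that of beta-actin was -0.71 to -0.33 in HFD and -0.16 to 0.21 in LFD arrays. Of 6 hepatocyte markers 3 fell on average, with summed ratios of 8.68 to 9.94 in HFD and 10.2 to 12.7 in LFD arrays. Summed ratios of the plasma cell markers were 17.9 to 22.7 in HFD and 14.6 to 18.3 in LFD arrays, and 1 of 5, Sdc1, which hepatocytes also express, rose. Of 4 exocrine pancreas markers 2 fell, with summed ratios of 4.14 to 5.37 in HFD and 7.33 to 11.9 in LFD arrays. Summed ratios of endothelial markers were 7.07 to 7.69 in HFD and 4.96 to 6.36 in LFD arrays, and 1 of 5 rose. Of 6 stellate and fibroblast markers 2 fell (8.51 to 10.5 in HFD and 7.17 to 11.2 in LFD arrays). Neutrophil markers were called in opposite directions in the genotypes, though none passed the test of that difference. In Alb::GC 1 of 5 fell, with summed ratios of 2.85 to 3.95 in HFD and 5.38 to 5.72 in LFD arrays, and in wildtype 3 of 5 rose, with 11.4 to 13.2 in HFD and 3.85 to 5.27 in LFD arrays. Of 6 macrophage and 4 lymphocyte markers 1 each rose on average, no adipocyte marker passed, and of 4 cholangiocyte markers 1 fell and 1 had sets in both directions. The part of any of these in the members' differences was not tested.

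Of the list of 56 other genes of the route, 14 rose, 13 fell, 2 had sets in both directions and 27 did not pass with HFD on average. By probe set 16.8% of 113 were higher and 13.3% lower, near the 13.5% and 14.0% of all probe sets. The cargo receptor Lman1 rose by 0.45 to 1.43 in 3 sets, Mia3 and Mia2, which help load large cargo at exit sites, by 0.90 to 1.24 and 1.19, and Arfgap3 by 0.81. Kdelr2 fell by 1.23, Tram1 by 1.03 in 1 set and Ddost by 0.70. Among the regulators, Creb3l2 rose by 0.83 in 1 set and Atf6 by 0.96, while Creb3, Ern1 and 1 Atf4 set fell.

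The drug and diet experiments share no array. Of all members, 65.1% were lower with AP20187, and the overlaps are read against that share. Of the 14 members lower with HFD on average, 11 were also lower with AP20187, which is 78.6% of these 14 and 15.5% of the 71. Of the 10 lower with HFD in wildtype, 9 were (90.0% of the 10 and 12.7% of the 71). Of the 12 higher with HFD on average, 4 were lower and 2 higher with AP20187. Sec23a is the COPII gene that rose in both, by 0.67 with AP20187 and 0.75 with HFD. Sec23ip rose by 0.87 with AP20187 and fell by 0.51 with HFD. Tmed3 fell by 1.78 with AP20187 and rose by 0.49 with HFD. Ssr1, Ssr4, Rpn1, Sec61b, Srp14 and Tmed4 were lower in both, each in at least 1 of the same probe sets.

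Alb::GC was compared with wildtype on each diet to ask what damped eIF2α signalling does to the route. No member passed on HFD or LFD (limma), with 13 members (11.9%) at an unadjusted p under 0.05 in each, near the 11.2% on HFD and 10.3% on LFD of all probe sets. Over all probe sets 0.133% passed on HFD and 0.0% on LFD. On HFD, 80 of 109 members had a difference above 0, against 52.1% of all probe sets, with a median of 0.17 against 0.02 over all probe sets. On LFD 50 of 109 had one, against 43.0% of all probe sets, and the median was -0.09 against -0.06. Many of the 109 are repeat sets of 1 gene, and these counts of direction were not tested. Examples on HFD that did not pass were Spcs3, with 1.36 and 1.39 in Alb::GC and 0.96 and 0.97 in wildtype (0.49 ± 0.15; limma, adjusted p = 0.31), and Copg1, with 1.25 and 1.27 in Alb::GC and 0.82 and 0.84 in wildtype (0.57 ± 0.15; limma, adjusted p = 0.225). In both genes the 2 Alb::GC arrays lay above the 2 wildtype arrays. On HFD the summed ratios of neutrophil markers were 2.85 to 3.95 in Alb::GC and 11.4 to 13.2 in wildtype arrays, with no marker passing, and their part in the members' differences was not tested.

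The diet effect itself was compared between genotypes. The test of this interaction called no member, and 0.0% of all probe sets. At an unadjusted p under 0.05, 11 members (10.1%) passed, against 11.1% of all probe sets. The median interaction of the members was 0.20, against 0.08 over all probe sets. It lay above 0 in 83 of 109 members, against 55.9% of all probe sets, and this count was not tested. The smallest adjusted p belonged to Tmed8, at 0.96 ± 0.24 (limma, adjusted p = 0.25). Tmed8 had 0.96 and 0.89 in HFD Alb::GC against 1.12 and 1.05 in LFD Alb::GC arrays, while wildtype arrays had 0.67 and 0.80 on HFD against 1.92 and 1.54 on LFD. That lower calls were made in wildtype and not in Alb::GC does not show that the genotypes differ.

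Promoters were read because stress factors bind known motifs in genes of the route. Windows from 250 bases before to 50 after the gene start (RefSeq, GRCm38.p6) were found for 44 of the 51 genes. The core of the unfolded protein response element (UPRE), TGACGTGG, which XBP1 and ATF6 bind, was searched on both strands. It lay in 5 of 44 member windows (11.4%), against 1.04% of 9883 measured genes with a window and 0.714% of 27025 genes. The 5 genes were Sec16b, Sec23a, Sec24d, Copb1 and Copb2. Of these, Sec16b, Sec23a and Sec24d rose with HFD on average and Copb1 and Copb2 did not pass. The other COPII genes that rose with HFD, Sec16a and Sec31a, have no core in their windows. The motif's first 6 bases, TGACGT, which also form a cAMP response half-site, lay in 12 of 44 (27.3%), against 11.5% of measured genes. Every UPRE core contains this half-site. The stretches below show the 5 matches, and the half-site of Sec23b beside that of its paralogue Sec23a, with the match in capitals and 16 bases on either side, written 5′ to 3′ on the gene's strand.
Sec16b (chr1:157506736-157506775, plus strand): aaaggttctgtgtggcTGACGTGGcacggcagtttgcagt
Sec24d (chr3:123267454-123267493, plus strand): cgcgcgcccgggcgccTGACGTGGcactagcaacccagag
Sec23a (chr12:59011988-59012027, minus strand): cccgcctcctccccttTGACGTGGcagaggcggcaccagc
Copb1 (chr7:114254685-114254724, minus strand): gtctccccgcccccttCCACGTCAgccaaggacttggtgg
Copb2 (chr9:98563708-98563747, plus strand): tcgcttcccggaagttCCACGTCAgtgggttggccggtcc
Sec23b (chr2:144556204-144556241, plus strand): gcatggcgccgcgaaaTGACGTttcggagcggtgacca

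In the first 3 stretches the core is followed by CA, on the gene's own strand, and in both COPI genes it lies on the opposite strand. The match starts 44 bases before the gene start in Sec16b, 26 before in Sec24d, 28 before in Copb1 and 7 before in Copb2, and 7 after it in Sec23a. Sec23b has the half-site 9 bases before its start without the last 2 bases of the core. Set beside expression, Copb1 did not pass and Copb2 fell with AP20187, Sec23a rose and Sec16b and Sec24d did not pass. A match is a run of letters and no evidence of binding.

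The other motifs were read in the same windows. The ER stress elements ERSE (CCAAT and CCACG, 9 bases apart) and ERSE-II (ATTGG and CCACG, 1 base apart) lay in 0 of 44 member windows, against 0.182% and 0.0809% of measured genes. At shares this low, 0 of 44 says little. The composite site of C/EBP and ATF factors, TGATGNAAN, lay in 0 of 44, against 3.11%. Taken alone, CCAAT lay in 43.2% of member windows and 42.3% of measured genes. CCACG lay in 32 of 44 member windows (72.7%) and in 47.6% of measured genes. The reverse strand of the UPRE core holds it, but the core lay in only 5 member windows. Median GC content was 59.2% in member windows and 59.0% in those of measured genes. The last 2 motifs were added after the first results were seen.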

How the data were processed

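The values are ratios as deposited by the authors in the series' value table, on a linear scale around 1, a reading that rests on the values themselves. For what the ratio was taken against, and for the scanner software and probe summary, the sources used here give nothing. The 64 control probe sets were left out of the tests. Replicate arrays correlated at 0.442 to 0.658 on the log2 scale, and none was a duplicate. An array ratio has no counting depth, so the number of arrays limits the precision.

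An offset of 0.05 was added before log2, and no level filter was used. Each experiment was fitted alone with limma 3.58.1 in R 4.3.3 (lmFit and eBayes with a mean-variance trend, two-sided, Benjamini-Hochberg over 22626 probe sets). Residual degrees of freedom were 6 for TTR::Fv2E-PERK, plus 2.06 from the variance model, and 4 for diet, plus 2.3. A gene was counted as fallen or risen where at least 1 of its 1-symbol probe sets passed and none passed the other way. Symbols came from the platform annotation, and all 51 matched a current RefSeq gene by identifier with no change of symbol. Tables and plots used Python 3.11.15 and matplotlib 3.10.9.

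The fit was tested on simulated data with the means and spread of these arrays over 22626 probe sets, 50 of them changed at each size and direction. For AP20187, 60% to 64% of differences of 2 (log2) and 30% to 32% of differences of 1 were recovered. For HFD in wildtype, 26% to 44% and 0% to 6% were. Far more probe sets were called in the data: 3107 higher and 4617 lower for AP20187, and 1804 and 1499 for HFD in wildtype. With few changed sets the Benjamini-Hochberg cut-off is stricter, so these shares do not give the recovery in the fits reported here.

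The members, role lists and motifs were chosen with earlier results of these data known. Named genes were the 1-symbol members with the 15 largest rises and falls past the threshold per comparison, or the 5 smallest p-values where under 5 passed, and for AP20187 the probe set of smallest p of every member gene. Others named were chosen after their values were seen. The labels give no replicate pairing. Alternatives were offsets of 0.01 and 0.2, median centring, quantile normalization, no trend, a filter on mean ratio under 0.2, leaving out each array, only the 4 arrays compared, and 1 probe set per gene.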

Additional observations from a re-analysis of the deposited data

Results flagged for a closer look

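In each group of 4 arrays of the drug experiment, the probe set of smallest p of each member gene and the other named sets were searched for an array far from the other 3. Of 122 groups, 7 held one, and chance alone is expected to give about 1 in 20. In treated liver, replicate 3 stood above the others for Copg1 (1.0, others 0.67 to 0.68), Sec61b (0.61, others 0.53 to 0.54) and Sec31a (1.12, others 0.84 to 0.88). Replicate 1 stood above for Ssr3 (0.74, others 0.67 to 0.68), and replicate 2 below for 1 Ssr1 set (0.62, others 0.68). In untreated liver, replicate 1 stood above for Sec24b (0.71, others 0.50 to 0.53), and replicate 3 below for Tmed8 (0.74, others 0.99 to 1.03). Of these genes, Copg1, Sec61b, Ssr3, Ssr1 and Sec24b separated the groups with these arrays included.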

How the results depend on the processing

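With AP20187, between 59 and 67 members were lower and 8 or 9 higher when 1 array was left out, with medians of -0.67 to -0.61, and other settings gave 62 to 72 lower and 8 higher. The median was -0.54 with an offset of 0.2. Copb1, which did not pass, changed sign to 0.027 after median centring and 0.059 after quantile normalization, and ranged over -0.079 to 0.022 when 1 array was left out, above 0 without untreated replicate 4, AP20187 replicate 2 or AP20187 replicate 4. Tmed11, which did not pass, ranged over -1.04 to 0.032, above 0 without untreated replicate 4. Of the repeats of named sets, 801 kept their call, 42 lost it, 5 gained it and 6 changed sign.

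The diet calls were less stable. In the self-test few differences of 1 were recovered with 2 arrays per group, but it changed far fewer probe sets than were called in these data. With only the 4 arrays compared, and so fewer degrees of freedom, HFD called 1 lower and 1 higher in wildtype and 0 higher in Alb::GC. With median centring Alb::GC had 3 lower. Without 1 array, HFD in wildtype ranged over 0 to 9 lower and 0 to 5 higher (median -0.27 to -0.0029), and HFD in Alb::GC over 0 to 4 lower and 0 to 10 higher (median -0.043 to 0.076). In wildtype, lower calls were 3 without LFD wildtype replicate 1, 0 without HFD wildtype replicate 1 or 2, and 6 without HFD Alb::GC replicate 1. Higher calls were 1 without LFD wildtype replicate 2 and 0 without HFD wildtype replicate 1 or 2. In Alb::GC, higher calls were 1 and 2 without LFD Alb::GC replicates 1 and 2, 3 without either HFD wildtype array and 0 without either HFD Alb::GC array, and lower calls were 2 and 4 without LFD wildtype replicates 1 and 2. Averaged over genotypes, the ranges were 7 to 12 lower and 6 to 13 higher (median -0.14 to -0.05). Lower calls were 7 without HFD wildtype replicate 1 or HFD Alb::GC replicate 2, and 9 without LFD Alb::GC replicate 2, HFD wildtype replicate 2 or HFD Alb::GC replicate 1. Higher calls were 7 without LFD Alb::GC replicate 1 or HFD wildtype replicate 1, and 6 without HFD wildtype replicate 2 or either HFD Alb::GC array. Where no value above shows it, the cause was not tested.

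For Alb::GC against wildtype no member was called in any setting run. The median on LFD ranged over -0.16 to 0.063 without 1 array and was 0.0029 after quantile normalization; on HFD it ranged over 0.12 to 0.23, and that of the interaction over 0.077 to 0.33. No paired analysis was possible because the labels give no replicate numbers.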
